A study of Mus musculus with 12 samples.

Results

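The regions described here are accessible chromatin peaks at the promoters of protein-coding genes in mouse brain macrophages profiled by ATAC-seq, an assay in which a transposase cuts open DNA. A peak was included where the authors' annotation placed it at a promoter (promoter-TSS) and gave its gene as protein-coding. The rule used no measured difference. It took 12707 of 60288 peaks (21.1%, 10343 genes) in the table of untreated mice and 11850 of 54953 peaks (21.6%, 10145 genes) in the table of mice given lipopolysaccharide (LPS), a bacterial endotoxin. The animals were wild-type (WT) C57BL/6J mice that were irradiated with 950 cGy and received donor bone marrow. Untreated and LPS mice thus share the irradiation and the graft, but the 2 populations do not share the irradiation. Host microglia were irradiated, while the grafted cells came from marrow given afterwards. Irradiation and population therefore cannot be told apart in any comparison of CD45.1 with CD45.2. The labels give 3.5 or 9 months between graft and analysis and do not assign mice to either, and the longer is the one named in the text of the study. From each brain, donor-derived CD45.1 cells and the host's own CD45.2 microglia were sorted. The 12 libraries form 4 groups of 3, namely both populations of untreated mice (mice 4, 5 and 6) and both populations of mice killed 12 h after 2.5 mg/kg LPS (mice 1, 2 and 3). The comparisons ask whether promoters of grafted cells and host microglia differ, whether they respond to LPS, and whether the responses differ.

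Promoters flank the start site of transcription, where RNA polymerase and its general factors assemble. In mammals most promoters lie in CpG islands, which stay free of nucleosomes in many cell types whether or not the gene is transcribed strongly. Promoters poor in CpG are more often open in particular cell types and depend on lineage and signal-dependent factors. In macrophages these include PU.1, C/EBP, AP-1, RUNX and interferon-responsive factors. Microglia descend from yolk sac progenitors, while the grafted cells descend from hematopoietic stem cells in the bone marrow.

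The sequences below belong to the promoter peaks that differed between the populations with the smallest adjusted p in each direction and table. They are shown because the results below turn on these genes and because their base composition bears on the classes described later. Garem1, first in both tables for CD45.2, is not printed. Each is the stretch upstream of the GENCODE start site, on mm9 and 5′ to 3′ on the strand of the gene, and was extended upstream to 100 bases where the peak held fewer. Capitals mark matches to the 13 motifs listed with the motif counts. Hs3st1 (chr5:40035887-40036017, minus strand), Apoe (chr7:20284516-20284615, minus strand) and Serpinb8 (chr1:109486476-109486582, plus strand) were higher in CD45.1. Myo6 (chr9:80012676-80012837, plus strand, without an annotated exon that overlapped the peak), Lyplal1 (chr1:187941190-187941289, minus strand) and Nova1 (chr12:47920415-47920606, minus strand) were higher in CD45.2. The Nova1 stretch begins 653 bases upstream of the start site.
Hs3st1: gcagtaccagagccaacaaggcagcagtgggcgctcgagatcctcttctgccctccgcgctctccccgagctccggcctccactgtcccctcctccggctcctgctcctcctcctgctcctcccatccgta
Apoe: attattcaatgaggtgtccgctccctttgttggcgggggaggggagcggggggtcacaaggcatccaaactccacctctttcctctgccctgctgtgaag
Serpinb8: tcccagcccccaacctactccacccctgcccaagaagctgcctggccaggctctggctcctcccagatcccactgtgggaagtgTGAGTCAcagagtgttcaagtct
Myo6: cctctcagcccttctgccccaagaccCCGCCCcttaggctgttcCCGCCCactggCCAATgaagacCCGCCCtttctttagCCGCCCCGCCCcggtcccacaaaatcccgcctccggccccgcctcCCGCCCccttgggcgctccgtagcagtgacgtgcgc
Lyplal1: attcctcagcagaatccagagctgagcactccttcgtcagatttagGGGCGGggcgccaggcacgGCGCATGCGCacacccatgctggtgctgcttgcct
Nova1: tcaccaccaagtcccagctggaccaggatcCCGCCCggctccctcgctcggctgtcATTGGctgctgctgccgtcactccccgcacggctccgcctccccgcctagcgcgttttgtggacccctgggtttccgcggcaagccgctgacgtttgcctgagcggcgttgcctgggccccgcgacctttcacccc
All 3 sequences higher in CD45.2 held a GC box, with 6 matches in Myo6, and Lyplal1 also held NRF1 matches in a palindrome. Neither Hs3st1 nor Apoe held any motif searched, and Serpinb8 held 1 AP-1 match. Within these stretches CpG dinucleotides numbered 8 in Hs3st1, 3 in Apoe and 0 in Serpinb8, against 14 in Myo6, 6 in Lyplal1 and 19 in Nova1. The stretches were 131, 100, 107, 162, 100 and 192 bases long in that order, so these numbers also follow length.

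Libraries of untreated mice held 8392878 to 9107770 total tags and a median of 45 to 92 tags per promoter peak. After LPS the libraries were shallower, with 2966364 to 6556594 total tags and a median of 20 to 63 tags per promoter peak, so a promoter peak in that table carries more counting error. Promoter peaks of protein-coding genes took 40.5% to 44.2% of the tags in merged peaks in every library. Untreated CD45.1 libraries averaged 42.0% (SD 1.1395, n = 3) and untreated CD45.2 libraries 41.9% (SD 2.04), while the LPS libraries averaged 42.0% (SD 0.658) and 43.0% (SD 0.435). Paired by mouse, CD45.1 minus CD45.2 came to −0.412 percentage points (SD 1.37 over 6 mice, of which 2 had the higher share in CD45.1). The spread over animals covers this value (exact sign-flip permutation test on pairs, two-sided, p = 0.469, where 6 pairs allow no p below 0.0312). In the 3 LPS mice the difference was −1.64, −0.509 and −0.820 points (mean −0.990, SD 0.585, exact p = 0.25, the smallest that 3 pairs allow), and in the untreated mice −1.69, 0.219 and 1.97 (mean 0.166, SD 1.83). The CD45.2 library of untreated mouse 4 stood apart, since promoter peaks held 8.15% of all its tags against 15.8% and 15.7% in mice 5 and 6. Results are given without that library in the closing section.

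In untreated mice the promoters of grafted cells and host microglia were largely alike, and a small set differed strongly. Of the 12707 promoter peaks, 12546 had a count over 10 in at least 1 library and were tested. DESeq2 called 97 of them (93 genes) for CD45.1 and 102 (93 genes) for CD45.2, where a call needs an adjusted p under 0.01 together with a difference above 4-fold. These are 0.773% and 0.813% of the tested promoter peaks, where the background over all 59170 tested peaks was 3.78% and 2.65%. At an adjusted p under 0.05 alone the numbers were 331 (2.64%, background 8.54%) and 278 (2.22%, background 6.32%). Both counts thus lay below the background, although promoter peaks were measured more precisely, with a median SE of the log2 fold change of 0.23 against 0.37 over all peaks. Most promoter peaks (94.5%) differed by less than 2-fold, against 80.3% of all peaks. Promoter peaks held more tags (median 74.3 normalized tags against 27.2 over all peaks), and counting error alone puts more peaks with few tags past 2-fold. CD45.1 and CD45.2 libraries were fully separated in 19.2% of tested promoter peaks (background 35.5%) and in all 199 called ones. Across promoter peaks, log tags correlated with r of 0.944 to 0.970 between libraries of one population and 0.848 to 0.911 between populations, which share the same peaks and base composition.

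**Figure D1:**
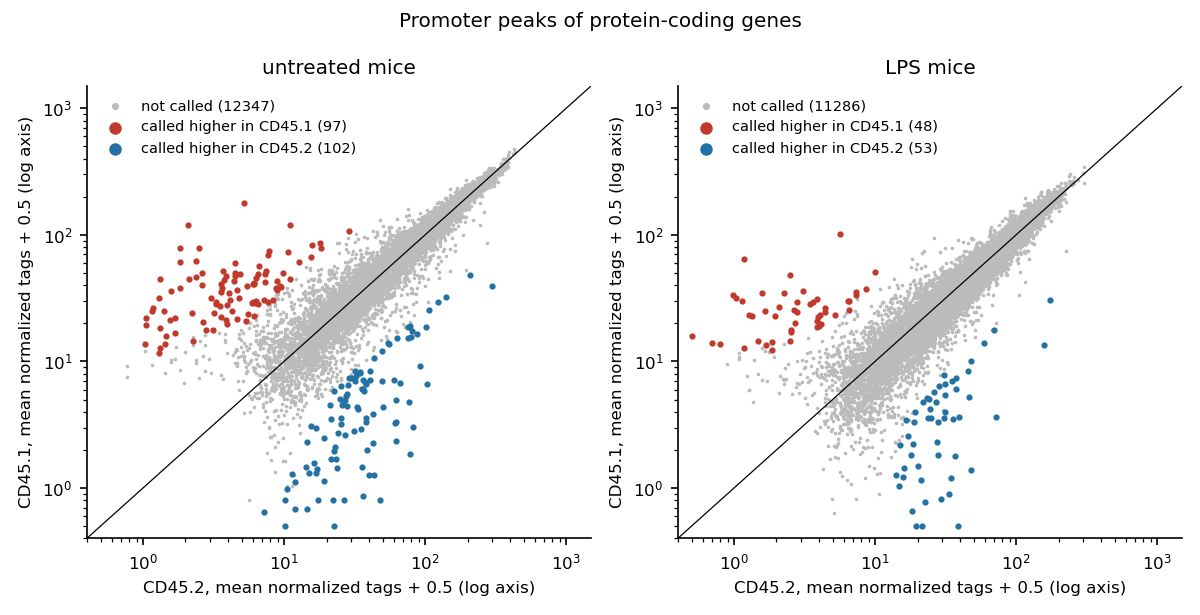
Each point is a tested promoter peak, with the mean normalized tags of the 3 CD45.2 libraries on the x axis and of the 3 CD45.1 libraries on the y axis (both + 0.5, log axes), for untreated and LPS mice. Most points lie along the line of equality, and the called peaks (97 and 102 in untreated, 48 and 53 in LPS mice) lie away from it, mostly at low levels of the lower population.

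The promoter higher in CD45.1 with the smallest adjusted p in untreated mice was that of Hs3st1, a heparan sulfate sulfotransferase, on chr5:40035887-40036017. Its normalized tags were 205, 201 and 130.1 in CD45.1 of mice 4, 5 and 6 and 6.55, 5.81 and 1.62 in their CD45.2 cells. The lowest CD45.1 library thus lay far above the highest CD45.2 library, and the log2 fold change was 5.32 (SE 0.44, adjusted p = 1.11e-29). Apoe, whose product is the main lipid carrier of the brain, had 128, 106 and 125 normalized tags in CD45.1 and 12.3, 8.51 and 10.5 in CD45.2 at a peak spanning its start site (chr7:20284414-20284570). Its log2 fold change was 3.53 (SE 0.33, adjusted p = 3.76e-23). A second Apoe peak, centred at −597 from the start site, had 31.7 ± 1.55 and 22.8 ± 1.37 (adjusted p = 0.504). The difference was thus found at the start site and was not detectable at the upstream peak.

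Further promoters were among the 10 with the smallest adjusted p. Clec12a, an inhibitory C-type lectin receptor, had 65.3, 84.4 and 83.3 normalized tags in CD45.1 and 0, 0.774 and 3.25 in CD45.2 (log2 fold change 5.61, SE 0.70, adjusted p = 5.65e-13). Klra2, a lectin-like receptor of the Ly49 family, had 67.2, 67.5 and 100.7 against 0, 2.71 and 3.25 (adjusted p = 1.39e-14). Its family has near-identical members, so its tags could be split between copies. Lilrb4a, an inhibitory immunoglobulin-like receptor, had 80.2, 87.2 and 87.7 against 18.8, 18.2 and 15.8, the smallest difference of the 10 (log2 fold change 2.24, SE 0.30, adjusted p = 1.40e-11), and was not called with the GC correction. Rara, the retinoic acid receptor alpha, had 66.7, 49.7 and 89.8 against 4.92, 7.35 and 9.33. Foxp1, a forkhead factor of blood cell development, had 41.0, 55.2 and 87.1 against 2.46, 0.774 and 2.43. At both factor genes mouse 6 was the highest CD45.1 library, and every CD45.1 library exceeded every CD45.2 library. Dynlt1b (adjusted p = 1.11e-16), a dynein light chain gene with near-identical neighbouring copies, and Sestd1 (adjusted p = 4.55e-11) were also among the 10 with the smallest adjusted p.

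The promoter higher in CD45.2 with the smallest adjusted p was that of Garem1, an adaptor of growth factor signalling. It had 128, 97.1 and 81.6 normalized tags in CD45.2 of mice 4, 5 and 6 and 6.06, 4.11 and 8.17 in CD45.1 (log2 fold change −4.104, SE 0.42, adjusted p = 2.02e-19). Myo6, a myosin that moves toward the minus end of actin filaments, had 264, 175 and 185 against 52.7, 58.9 and 32.1. Its peak was thus open in both populations, and the difference was one of level (log2 fold change −2.09, SE 0.22, adjusted p = 1.33e-17). Lyplal1, a lysophospholipase-like hydrolase, had 85.2, 87.9 and 103 against 10.7, 2.74 and 12.5 (adjusted p = 9.47e-17). Id4, an inhibitor of basic helix-loop-helix factors, had 75.4, 72.4 and 82.4 against 4.20, 6.39 and 2.18. Prox1, a homeobox factor of lymphatic and neural development, had 81.9, 78.6 and 83.6 against 1.87, 1.37 and 4.36. Sall3, a paralog of the microglial factor Sall1, had 66.4, 64.2 and 51.1 against 2.80, 5.48 and 0. The populations did not overlap at any of these 6 promoters. Ptprm, a receptor phosphatase of cell adhesion, Adgra3, an adhesion receptor, and Efnb2, an ephrin ligand, were more than 4-fold higher in CD45.2, but each held 18.4 to 31.8 normalized tags in CD45.1 on average. Without CD45.1 of mouse 6, or without CD45.2 of mouse 4, the library that stood apart, Myo6, Ptprm and Efnb2 fell just short of the 4-fold limit and were not called. LOC100861615 (adjusted p = 2.03e-12) belongs to a multicopy family, and its tags could be split between copies.

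**Figure D2:**
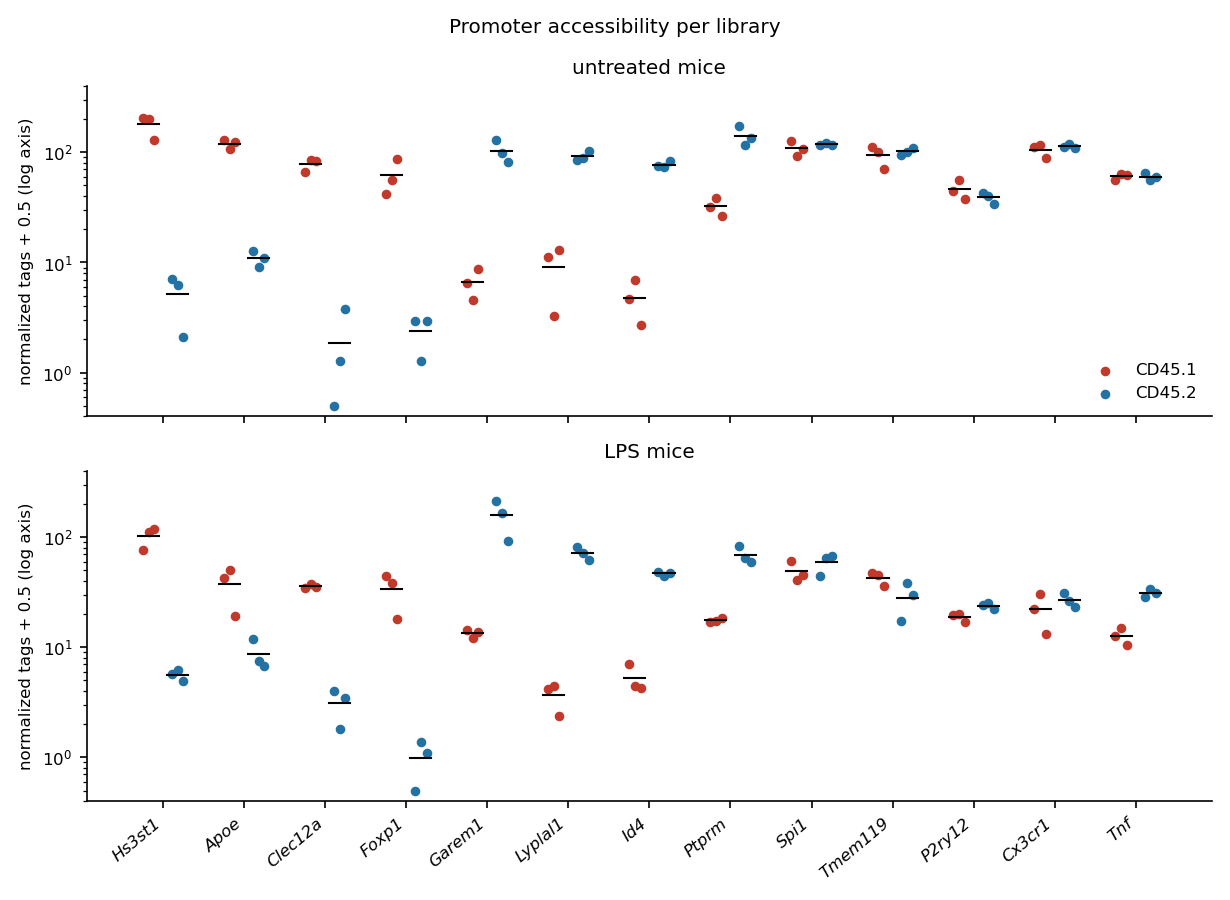
Normalized tags + 0.5 (log axis) per library at 13 named promoters, scaled within untreated mice (top) and LPS mice (bottom), with CD45.1 in red, CD45.2 in blue and a bar at the mean of 3 libraries. The 4 promoters at the left are higher in CD45.1 and the next 4 higher in CD45.2 in both panels, while Spi1, Tmem119, P2ry12 and Cx3cr1 overlap or lie close together.

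What the called promoters shared depended on the direction. CpG-rich promoters (observed over expected CpG of at least 0.6 and GC of at least 55% in a window of 500 bp) made up 8836 of the tested promoter peaks, intermediate ones 2387 and CpG-poor ones (ratio under 0.4) 1323. Of the 97 peaks higher in CD45.1, 56 (57.7%) were CpG-poor and 24 (24.7%) CpG-rich. Of the 102 higher in CD45.2, 16 (15.7%) were CpG-poor and 62 (60.8%) CpG-rich, closer to the 70.9% of promoter peaks that were not called. Put the other way, 4.23% of CpG-poor promoter peaks were called higher in CD45.1 and 1.21% higher in CD45.2, while CpG-rich ones gave 0.272% and 0.702%. CpG-poor peaks held fewer tags (median 31.3 normalized tags against 88.9) and had a larger SE (median 0.35 against 0.21). After LPS the pattern was alike, in other mice, with 30 of 48 (62.5%) calls higher in CD45.1 at CpG-poor promoters and 39 of 53 (73.6%) calls higher in CD45.2 at CpG-rich ones. Peaks centred within 100 bases of the start site made up 61.9% and 66.7% of the calls and 65.9% of uncalled peaks in untreated mice, and 68.8%, 49.1% and 66.7% after LPS. These shares are descriptions over peaks of the same libraries and were not tested.

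**Figure D3:**
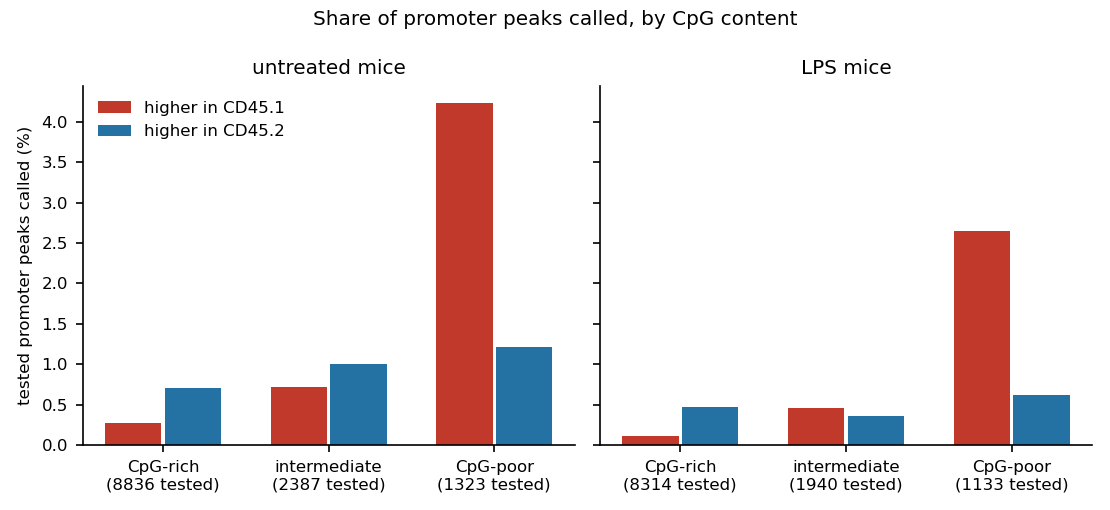
Bars give the percent of tested promoter peaks called higher in CD45.1 (red) or CD45.2 (blue) in each class of CpG content, for untreated mice (left) and LPS mice (right). CpG-poor promoters were called most often higher in CD45.1 (4.23% and 2.65%), and CpG-rich promoters more often higher in CD45.2 (0.702% and 0.469%) than in CD45.1 (0.272% and 0.108%).

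Motif matches were counted on both strands in 200 bp around the centre of each tested promoter peak, as letters only. In untreated mice a GC box (GGGCGG) was found in 61.3% of promoter peaks, in 29.9% of those called higher in CD45.1 and in 62.7% of those higher in CD45.2. A C/EBP match (TTGCNNAA) was found in 20.6% of peaks higher in CD45.1, against 5.88% of those higher in CD45.2 and 5.28% of all promoter peaks. The AP-1 motif (TGANTCA) gave shares of 9.28%, 2.94% and 2.95%. The ISRE core (GAAANNGAA), bound by interferon-responsive factors, gave 9.28%, 3.92% and 4.097%. The TATA box (TATAAA) was more frequent in both called sets, with 11.3%, 9.80% and 3.00%. The ETS motif (CCGGAAG), found in 15.6% of all promoter peaks, was rarer in both (2.06% and 6.86%). Motif content follows base composition, so the same was counted among CpG-poor peaks alone. There a C/EBP match was found in 17.2% of the 151 peaks that passed for CD45.1 and in 11.2% of all, and a PU.1 match (GAGGAAGT) in 12.6% and 13.7%. In the 45 CpG-poor peaks that passed for CD45.2 the C/EBP share was 8.89%. An AP-1 match was found in 13.2% of CpG-poor peaks that passed for CD45.1, 11.1% of those that passed for CD45.2 and 8.77% of all, so within that class the directions differed little. The ISRE core gave 15.9%, 4.44% and 10.4% there. The GC box gave 17.2%, 26.7% and 18.6% among CpG-poor peaks and 80.2%, 77.4% and 73.0% among CpG-rich ones, in the same order. Within these classes its share in peaks that passed for CD45.1 thus lay close to or above that of all. Among CpG-rich peaks a CCAAT box (CCAAT) was found in 39.6% of the 164 that passed for CD45.2, in 25.7% of those that passed for CD45.1 and in 30.5% of all. After LPS, AP-1 was found in 20.8%, 3.77% and 3.81%, and C/EBP in 20.8%, 11.3% and 5.55%. Among CpG-poor peaks of LPS mice C/EBP was found in 29.03% of the 62 that passed for CD45.1 and in 35.3% of the 17 that passed for CD45.2, against 15.4% of all, so within that class the motif did not follow the direction, and AP-1 was found in 27.4%, 17.6% and 14.03%. The other motifs searched were CRE (TGACGTCA), NRF1 (GCGCATGC) and YY1 (AAGATGGC), the E-box (CACGTG) and, for RUNX factors, the letters TGTGGTT. Binding was not measured.

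Peaks outside promoters were compared at the same genes. Of the 93 genes with a promoter called higher in CD45.1, 82 also had a tested peak outside promoters, and 48 of these (58.5%) had at least 1 such peak called higher in CD45.1 and 1 had one called higher in CD45.2. Of the 93 genes with a promoter higher in CD45.2, 65 had such peaks, of which 41 (63.1%) had 1 called higher in CD45.2 and 2 had one called higher in CD45.1. Among 7170 genes with such peaks and no called promoter the shares were 10.9% and 6.12%, with a median of 2 such peaks against 4 and 3 in the called sets. At genes with a called promoter, peaks called outside promoters were thus rarely in the opposite direction, although more peaks give more chances of a call. The direction of uncalled peaks was not counted. Of 1827 genes with several tested promoter peaks, 45 had a call, and 26 of these also had a promoter peak that did not pass an adjusted p of 0.05. No gene with a call had promoter peaks that passed in opposite directions. In the peak lists, 79 of the 97 higher in CD45.1 were in none of the 3 CD45.2 lists, and 3 were in all of them. Of the 102 higher in CD45.2, 71 were in none of the 3 CD45.1 lists, and 9 were in all of them. Of 12347 uncalled peaks, 414 were in no CD45.2 list and 650 in no CD45.1 list. The lists rest on the same libraries as the calls, so they are no further evidence of a difference.

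Gene lists were set beside the medians of all tested promoter peaks (0.05 in untreated and −0.04 in LPS mice, log2). In untreated mice 22 of 28 listed genes of bone-marrow-derived brain macrophages had a promoter peak. Of their 26 peaks, 7 were called higher in CD45.1 and 0 higher in CD45.2, and 12 against 0 passed an adjusted p of 0.05, with a median log2 fold change of 0.88. Besides Apoe and Clec12a these included Ccr1, a receptor for inflammatory chemokines, with 48.8 ± 16.3 and 6.79 ± 2.37 normalized tags (SD, n = 3, adjusted p = 3.11e-08). Ms4a7, a membrane protein of tissue macrophages, had 27.5, 31.9 and 34.3 in CD45.1 against 1.64, 2.71 and 3.25 in CD45.2 (adjusted p = 1.09e-06). This list was drawn up with earlier results of these data known, and its direction is no independent evidence. Of the homeostatic microglia list, 21 of 24 genes had a promoter peak, and 2 of 26 peaks passed, both higher in CD45.2, namely Sall3 and Upk1b. Upk1b had 10.5 ± 2.33 normalized tags in CD45.2 and 1.40 ± 1.68 in CD45.1 (adjusted p = 0.0234, and 0.0745 with the mouse as a block).

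None of 39 peaks of ribosomal protein genes, 30 of cell cycle genes or 33 of lysosome genes passed in untreated mice. Of all tested promoter peaks 2.64% and 2.22% passed for CD45.1 and CD45.2, so a list of this size at that share would hold few passes. Of 19 peaks of macrophage identity genes only Cd14, the LPS co-receptor, passed, at 78.1 ± 13.3 (CD45.1) against 38.4 ± 3.18 (CD45.2) normalized tags (adjusted p = 0.00115). Of 38 NF-kB and inflammatory peaks, 3 passed, all higher in CD45.2 (Il1a, Icam1 and Relb), and with the mouse as a block their adjusted p were 0.0898, 0.146 and 0.156. Of 22 interferon-stimulated peaks (median log2 fold change 0.37), 2 passed, both higher in CD45.1. Ifi204, a sensor of the interferon-inducible p200 family, had 139.6 ± 11.4 against 72.3 ± 18.7 (adjusted p = 0.000181), and Xaf1 did not pass with the block (adjusted p = 0.0984). Of 41 peaks of blood lineage factors, 4 passed higher in CD45.1 and 1 higher in CD45.2. Runx3, a factor of lymphoid and myeloid cells, had 40 tags over the 3 CD45.1 libraries and 2 over the CD45.2 libraries, a ratio of 24.3 (95% exact binomial interval 6.30 to 208, counting error only). Meis1, a homeobox factor of stem cells, was higher in CD45.2 with 136 ± 15.8 against 76.9 ± 13.5 (adjusted p = 0.000730). Scaled by total tags, Cd14 (adjusted p = 0.0661), Ifi204 (0.1635), Meis1 (0.1515) and Xaf1 did not pass, nor did the 3 inflammatory promoters. The Runx3 peak was called (adjusted p = 0.00260), as was a second Runx3 promoter peak (36.5 tags against 3). Leaving out the CD45.1 library of either mouse 4 or mouse 6, or the CD45.2 library of mouse 5, ended the call of the first. Its adjusted p was at most 0.0505 over the alternatives.

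The same lists in LPS mice gave fewer passes. Of all tested promoter peaks there, 1.06% and 1.05% passed for CD45.1 and CD45.2, so a list of this size at that share would hold few. Of 27 peaks of the bone-marrow-derived macrophage list 3 were called higher in CD45.1 (Apoe, Clec12a and Pla2g7), 4 passed for CD45.1 and 1 for CD45.2, with a median of 0.38. Pla2g7, which hydrolyses platelet-activating factor, had 19.1 ± 1.86 and 3.62 ± 1.07 normalized tags (adjusted p = 0.00550, and 0.0419 with the block). Clec4a1, a C-type lectin receptor, passed for CD45.2 (adjusted p = 0.0365, and 0.197 with the block). Of 17 homeostatic microglia peaks Sall3 was called higher in CD45.2, with 30.7, 27.5 and 23.2 against 1.62, 1.96 and 1.89. Of 34 blood lineage factor peaks 2 passed for CD45.1 (Runx3 and Bhlhe40) and 1 for CD45.2 (Gata2), and Runx3 and Gata2 lost this with the block (adjusted p = 0.112 and 0.0691). Of 33 NF-kB and inflammatory peaks 2 passed for CD45.2 (Tnf and Relb). No peak of the macrophage identity (18), interferon-stimulated (22), ribosomal protein (33), cell cycle (28) or lysosome (33) lists passed. Of the markers of other cells, Map2 (adjusted p = 0.0214, and 0.123 with the block) and the neutrophil collagenase Mmp8 (53.2 ± 9.70 against 19.1 ± 6.16, adjusted p = 0.00211, and 0.0691 without CD45.2 of mouse 2) passed for CD45.1. The 4 neutrophil peaks summed to 76.01 to 115 in CD45.1 and 50.8 to 108 in CD45.2, and the part of other cells was not tested.

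Fixed reference promoters show how far the populations coincided in untreated mice. Spi1, which encodes PU.1, had 125, 92.6 and 106 normalized tags in CD45.1 and 116, 120.4 and 117 in CD45.2 (log2 fold change −0.12, SE 0.19, adjusted p = 0.804). Tmem119, a microglial membrane protein, had 94.3 ± 21.6 and 102 ± 6.87 (adjusted p = 0.853). P2ry12, the purinergic receptor of resting microglia, had 45.8 ± 9.44 and 38.6 ± 4.797 (adjusted p = 0.710), and Cx3cr1, the fractalkine receptor, 105 ± 15.5 and 114 ± 4.97 (adjusted p = 0.838). H2-Ab1, an MHC class II chain, had 77.4 ± 24.98 and 65.6 ± 12.97 (adjusted p = 0.680), and Tnf, the cytokine, had 55.5, 62.98 and 61.5 in CD45.1 and 64.7, 55.7 and 58.8 in CD45.2 (adjusted p = 0.987). None of these 6 passed, and values of CD45.1 and CD45.2 overlapped at each. Sall1, Csf1r, Il1b and Marco had no peak of this class in either table.

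Markers of other cells were mostly without promoter peaks, but some moved with the populations. In untreated mice a promoter peak was absent for 14 of 15 lymphocyte and NK markers, 10 of 12 neutrophil, 9 of 10 endothelial, 8 of 11 oligodendrocyte, 7 of 10 astrocyte and 11 of 15 neuron markers. The 3 astrocyte markers with a peak summed to 23.96 to 29.2 normalized tags in CD45.1 and 51.9 to 86.8 in CD45.2. Among them Aldh1l1 was higher in CD45.2 (39.0 ± 14.4 against 13.7 ± 3.10, adjusted p = 0.00413), as was Slc1a3 (adjusted p = 0.0417, and 0.125 with the block). Aldh1l1 did not pass when scaled by total tags, with the block and GC correction, or without CD45.2 of mouse 6 (adjusted p up to 0.179). The 4 neuron markers with a peak summed to 69.4 to 96.4 in CD45.1 and 37.7 to 47.9 in CD45.2, where Map2 was called higher in CD45.1 (46.4 ± 10.9 against 1.87 ± 0.204, adjusted p = 4.37e-09). The 2 peaks of 1 endothelial marker gene summed to 12.5 to 37.8 and 48.4 to 66.4 and did not pass. The 5 oligodendrocyte peaks (118 to 138 and 116 to 133), the 1 lymphocyte peak (7.62 to 10.95 and 11.6 to 18.3) and the 2 neutrophil peaks (59.2 to 73.0 and 41.4 to 48.3, with Mmp8 at an adjusted p of 0.0237, and 0.126 with the block) completed these lists. The part of such cells in the results was not tested. In sorted cells, a larger share of cells with an open promoter and a more open promoter per cell cannot be told apart. CD45.1 and CD45.2 are alleles of Ptprc on chromosome 1, and within 25 Mb of it 5 of 170 promoter peaks (2.94%) were called in untreated mice and 1 of 154 (0.649%) after LPS, against 1.57% and 0.890% elsewhere.

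After LPS the populations were compared in the other 3 mice. Of 11850 promoter peaks, 11387 were tested, and 48 (48 genes) were called for CD45.1 and 53 (52 genes) for CD45.2, which is 0.422% and 0.465% where the background over 49180 peaks was 1.78% and 1.19%. With the mouse as a block 29 and 37 were called. At an adjusted p under 0.05 alone 121 (1.06%, background 4.08%) and 120 (1.05%, background 2.38%) passed. Full separation was found in 18.8% of promoter peaks (background 27.1%) and in every called one. The median SE was 0.32, larger than in untreated mice, so the smaller counts cannot be read as a smaller difference. The counts also rested on single libraries. Calls for CD45.1 numbered 31 or 26 when the CD45.1 library of mouse 1 or 2 was left out, and 23 or 24 when the CD45.2 library of mouse 2 or 3 was. Calls for CD45.2 numbered 33 or 34 when the CD45.1 library of mouse 1 or 3 was left out, and 34 when the CD45.2 library of either mouse 1 or mouse 2 was.

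Hs3st1 again had the smallest adjusted p among promoters higher in CD45.1, with 76.4, 110.2 and 119 normalized tags in CD45.1 of mice 1, 2 and 3 and 5.25, 5.67 and 4.45 in CD45.2 (log2 fold change 4.33, SE 0.44, adjusted p = 3.91e-19). Serpinb8, an intracellular serine protease inhibitor, had 42.9, 48.3 and 51.0 against 1.75, 1.31 and 2.97 (adjusted p = 1.34e-09). Clec12a had 33.96, 37.2 and 34.9 against 3.50, 1.31 and 2.97 (adjusted p = 3.61e-07). Il1r1, the signalling receptor for interleukin 1, had 29.9, 41.1 and 31.1 against 0.876, 0 and 2.37 (adjusted p = 1.40e-06). Lrrk2, a large kinase of immune cells, had 29.1, 37.2 and 25.9 against 2.63, 3.92 and 3.56. Foxp1 had 101.5 tags over the CD45.1 libraries and 2 over the CD45.2 libraries, a ratio of 67.5 (95% exact binomial interval 18.3 to 568). Every CD45.1 library was above every CD45.2 library at each of these. Gm5150, Nt5c3, Sestd1 and Dynlt1b were the other members of the 10 with the smallest adjusted p. Apoe had 42.0, 49.6 and 18.9 against 11.4, 6.98 and 6.23 (log2 fold change 2.32, SE 0.49, adjusted p = 0.000204), and was not called when the CD45.1 library of mouse 1 or 2, or the CD45.2 library of mouse 2 or 3, was left out. Ms4a7 had 8.55 ± 3.11 and 4.45 ± 1.22, a difference that was not detectable at this depth (adjusted p = 0.601).

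Among promoters higher in CD45.2 after LPS, Garem1 had 212, 167 and 91.4 normalized tags in CD45.2 and 13.7, 11.7 and 13.2 in CD45.1 (log2 fold change −3.57, SE 0.35, adjusted p = 5.98e-20). Nova1, an RNA-binding regulator of splicing, had 234, 154 and 131 against 22.6, 30.7 and 37.3 (adjusted p = 2.22e-15). Lyplal1 had 80.6, 71.5 and 60.9 against 3.64, 3.91 and 1.89, and Id4 48.2, 43.6 and 46.9 against 6.47, 3.91 and 3.77. Mcts2, a retrogene within another gene, had 42.0, 35.8 and 36.5 in CD45.2 and no tag in any CD45.1 library, so it was at least 38.1-fold higher at a floor of 3 tags over the group. Dlc1, a GTPase-activating protein, had 139.5 tags against 3, a ratio of 52.3 (95% exact binomial interval 17.6 to 258). Magi1 and Ptprm, both at cell contacts, lay just past the 4-fold limit, with log2 fold changes of −2.09 and −2.002, and Ptprm was not called in 9 of 14 alternative fits. Khdrbs3 and the X-linked, multicopy Xlr complete the 10. At Tnf, which did not pass in untreated mice, the values were 12.1, 14.4 and 9.91 in CD45.1 and 28.0, 33.6 and 30.6 in CD45.2 (log2 fold change −1.38, SE 0.42, adjusted p = 0.0223, and 0.141 with the block). Relb passed in the same direction (adjusted p = 0.0334, and 0.193 with the block). Bhlhe40, a regulator of macrophage activation, was higher in CD45.1 in both tables, with 94.6 ± 13.7 and 47.0 ± 15.6 after LPS (adjusted p = 0.00274). It did not pass in 4 of 14 alternatives in untreated mice (total tags, and leaving out the same libraries as for Runx3) and in 3 of 14 after LPS (leaving out either library of mouse 2, or the CD45.2 library of mouse 3).

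Promoters called in untreated mice that were matched and tested after LPS, 1 excepted, had the same direction there, in different animals. A promoter without a matching peak in the LPS table is left out of this comparison, and its direction after LPS is not known. Of the 97 peaks higher in CD45.1, 78 were matched to a promoter peak of the same gene in the LPS table and 76 were tested there. Of these 75 (98.7%) had the same sign, 51 passed in the same direction and 32 (42.1%) were called, while 0 passed in the opposite direction. Of the 102 higher in CD45.2, 76 were matched and 69 tested, of which 69 had the same sign, 57 passed and 40 (58.0%) were called, and again 0 passed in the opposite direction. Over all 9926 matched promoter peaks that were tested in both, 59.3% had the same sign. The median log2 fold change of the called peaks tested in both was 3.26 in untreated and 2.33 in LPS mice for those higher in CD45.1, and −2.96 and −2.76 for those higher in CD45.2. The 32 called higher in CD45.1 in both included Spic, a PU.1-related factor (3.88 and 3.76), Nlrc4, an inflammasome sensor (4.57 and 2.99), and Cysltr2, a leukotriene receptor (3.42 and 5.30). The 40 called higher in CD45.2 in both included Epha4, an ephrin receptor (−3.66 and −3.22), Klf15, a Krüppel-like factor (−4.55 and −4.97), and Sema6a, a semaphorin (−3.70 and −3.34). These 6 were chosen after their values were seen.

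**Figure D4:**
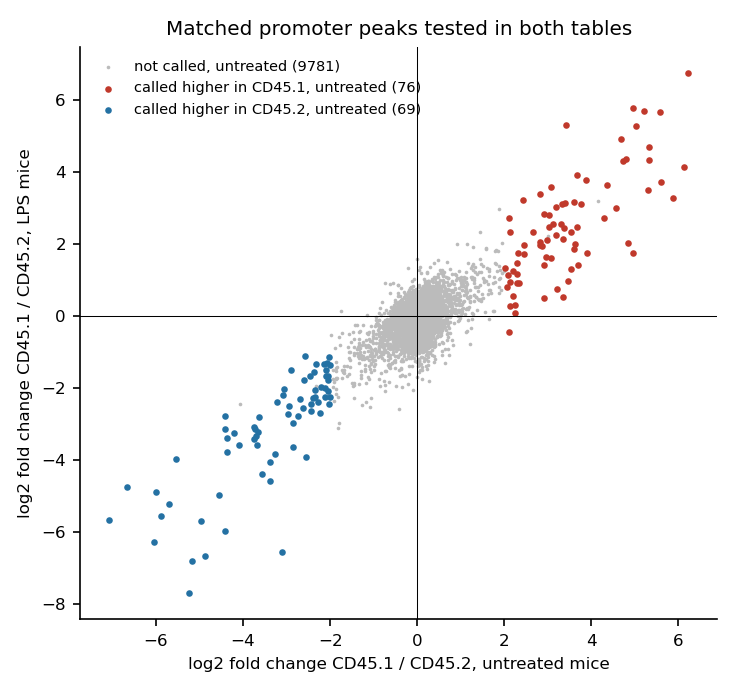
Each point is a promoter peak matched between the tables and tested in both (9926), with the log2 fold change of CD45.1 over CD45.2 in untreated mice on the x axis and in LPS mice on the y axis. Of the 76 peaks called higher in CD45.1 in untreated mice (red), 75 lie above 0 in LPS mice, and all 69 called higher in CD45.2 (blue) lie below 0.

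LPS against untreated mice was tested within each population at 10053 tested promoter pairs, that is, promoter peaks of one gene that overlapped between the tables. In CD45.1, 291 pairs were higher and 303 lower after LPS (called past 2-fold with an adjusted p under 0.05), and in CD45.2, 281 were higher and 103 lower. These are 2.89% and 3.01% of the pairs in CD45.1 (background over all 39235 pairs 6.78% and 4.93%) and 2.80% and 1.02% in CD45.2 (background 7.69% and 3.69%). Of the pairs higher after LPS 165 were shared, which is 56.7% of those of CD45.1 and 58.7% of those of CD45.2. Of the pairs lower after LPS 50 were shared (16.5% and 48.5%), and no pair was called in opposite directions. Peaks of each treatment were called and counted separately and the LPS libraries were shallower, so treatment, table and depth cannot be told apart in this comparison. Scaled by total tags, which moved the median over all pairs to −0.15 (log2) in CD45.2 and −0.04 in CD45.1, the counts were 205 and 128 in CD45.1 and 164 and 70 in CD45.2. Peaks were also wider in the LPS table, with medians of 189 against 154 bp at CpG-rich and 173 against 140 bp at CpG-poor pairs. With an offset for peak width the counts were 219 and 255 in CD45.1 and 200 and 63 in CD45.2. Leaving out the CD45.1 library of mouse 3 or 2 gave 160 or 200 pairs lower in CD45.1, and leaving out the CD45.2 library of mouse 5 or 6 gave 60 or 67 lower in CD45.2.

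Hal, which encodes histidine ammonia-lyase, had the smallest adjusted p in CD45.1. On the scale shared by all libraries it had 20.5, 10.4 and 29.4 normalized tags in CD45.1 of untreated mice and 154, 183 and 148 after LPS (log2 fold change 3.02, SE 0.26, adjusted p = 1.64e-27). In CD45.2 it had 3.26, 0.527 and 3.57 untreated and 94.6, 91.0 and 96.7 after LPS (log2 fold change 5.44, SE 0.51). Zyx, a focal adhesion protein, went from 69.2 ± 5.42 to 302 ± 46.2 in CD45.1 and from 65.5 ± 11.1 to 264 ± 80.1 in CD45.2. Tnfaip6, a matrix protein induced in inflammation, went from 11.3 ± 6.62 to 95.7 ± 29.7 and from 11.7 ± 3.10 to 75.9 ± 6.77. Cst7, a cystatin of activated microglia, went from 23.3 ± 5.60 to 117 ± 13.1 and from 35.8 ± 4.76 to 102 ± 23.7. Parvg, a parvin of blood cells, had the smallest adjusted p in CD45.2 and rose from 17.95, 14.2 and 12.1 to 89.5, 109 and 139 (log2 fold change 3.02, SE 0.28, adjusted p = 1.00e-23). Homer1, a scaffold protein, and 3110043O21Rik, a gene known for its repeat expansion in human disease, also rose in both populations. All these were higher in every LPS library than in any untreated library of the same population. Except at Cst7 (270 and 251 bp), their peaks were wider in the LPS table, and a wider peak can collect more tags. Zyx had 105 bp untreated and 206 bp after LPS, Tnfaip6 105 and 184, Homer1 147 and 279, and 3110043O21Rik 140 and 269. With an offset for peak width Hal, Zyx and 3110043O21Rik stayed called in both populations. So did Cst7 and Tnfaip6 in CD45.1 and Parvg and Homer1 in CD45.2.

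Among the pairs lower after LPS, Ccm2, a scaffold of vascular signalling, had 67.2, 53.6 and 67.0 normalized tags in untreated and 18.2, 15.5 and 5.60 in LPS libraries of CD45.1, and 65.3, 59.3 and 40.9 against 15.1, 20.2 and 19.3 in CD45.2. Its log2 fold change was −2.23 (SE 0.36, adjusted p = 6.53e-08) and −1.54 (SE 0.33, adjusted p = 7.81e-05), and every LPS library lay below every untreated library of its population. Its peak was 248 bp wide in the untreated and 143 bp in the LPS table. Ddx5, an RNA helicase, and Appbp2 were called in CD45.1 (−1.70 and −1.78, at peaks of 356 and 393 bp in the untreated and 246 and 210 bp in the LPS table) and stayed below 2-fold in CD45.2 (−0.75 and −0.92), and neither passed the test of a difference between the responses (adjusted p = 0.526 and 0.812). With an offset for peak width neither was called (adjusted p = 0.0116 at Ddx5, then below 2-fold, and 0.165 at Appbp2), while Ccm2 was. Aff1, Aatk and Coa3 fell in both populations, and Lpin2 was called in CD45.2 (−1.01), close to the 2-fold limit. Aff1 was not called in CD45.2 with the offset for peak width, and Lpin2 was not called in 4 of 18 alternative fits, among them that offset (adjusted p = 0.560). CpG-poor pairs were called most often, with 7.85% higher and 7.09% lower in CD45.1 and 9.27% and 4.36% in CD45.2, against 2.29%, 2.43%, 2.04% and 0.570% of CpG-rich pairs.

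Over all promoter pairs 2.89% were called higher and 3.01% lower in CD45.1, and 2.80% and 1.02% in CD45.2. A list of the sizes below would hold few calls at those shares. Of the gene lists, 27 NF-kB and inflammatory pairs gave 4 higher and 1 lower in CD45.1 and 5 higher and 0 lower in CD45.2, with median log2 fold changes of 0.34 and 0.29 where all promoter pairs had 0.03 and 0.06. Of 19 interferon-stimulated pairs 2 were higher in each population (medians 0.22 and 0.49). Of 16 homeostatic microglia pairs 0 were higher and 2 lower in CD45.1, and 0 higher and 3 lower in CD45.2 (medians −0.13 and −0.42). Of 25 pairs of bone-marrow-derived macrophage genes 1 was higher and 3 lower in CD45.1, and 2 higher and 0 lower in CD45.2 (medians −0.19 and 0.39). Of 31 ribosomal protein pairs 1 was higher and 1 lower in CD45.1 and 1 higher in CD45.2, of 26 cell cycle pairs 1 was lower in CD45.1, and of 29 lysosome pairs 1 was higher in each. Of 16 macrophage identity pairs 1 was higher in CD45.1 and 2 in CD45.2, and of 30 blood lineage factor pairs 0 were called in CD45.1 and 1 each way in CD45.2. Of 12 neutrophil markers 2 formed pairs, and 1 of these was higher after LPS in both populations. Neuron markers gave 3 pairs, 1 of them higher in CD45.2, and no astrocyte (2), oligodendrocyte (4) or endothelial (2) pair was called. The part of other cells in the response was not tested.

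The members of these lists that responded are named here after their values were seen. Their values with an offset for peak width are not given here. Cd14 went from 51.9 ± 8.26 to 129.7 ± 2.22 normalized tags in CD45.1 and from 25.9 ± 1.87 to 78.1 ± 12.8 in CD45.2 (log2 fold changes 1.33 and 1.62). The Cd14 peak was 159 bp wide in the untreated and 309 bp in the LPS table, and a wider peak can collect more tags. Ptgs2, the inducible cyclooxygenase, rose in both (1.54 and 1.24), as did Gbp2, an interferon-induced GTPase (1.89 and 1.84), and Nfkbiz, an atypical inhibitor of NF-kB (1.20 and 1.16), at their peaks nearest to the start site. Cxcl10, an interferon-induced chemokine, was called in CD45.1 (1.19) and stayed below the 2-fold limit in CD45.2 (0.96). Il1a, an interleukin 1 cytokine, was called in CD45.1 (1.17, adjusted p = 0.0459) and lay at 0.26 in CD45.2. Ccl3, a macrophage chemokine, and Tlr2, a receptor for bacterial lipoproteins, were called in CD45.2 (1.33 and 1.05) and lay at 0.47 and 0.89 in CD45.1. Cx3cr1 fell in both populations, from 70.2 ± 10.98 to 31.7 ± 12.9 and from 76.5 ± 4.01 to 38.4 ± 5.31, and Olfml3 fell as well (−1.15 and −1.34). Siglech, a sialic acid binding lectin, was called lower in CD45.2 (−1.09) and lay at −0.46 in CD45.1. The MHC class II promoters H2-Ab1 (−1.19) and H2-Eb1 (−1.38 nearest to the start site) were lower in CD45.1, where CD45.2 had −0.14 and −0.79. Tnf was lower in CD45.1 (39.9 ± 2.65 to 17.9 ± 3.36, adjusted p = 0.00278) and did not pass in CD45.2 (40.3 ± 2.54 to 44.7 ± 4.16). The difference between these responses did not pass either (adjusted p = 0.153). Nor did that at H2-Ab1 (adjusted p = 0.693), H2-Eb1 (0.953), Siglech (0.953), Ccl3 (0.569), Il1a (0.944), Cxcl10 (0.981) or Tlr2 (0.991). The responses of Cxcl10 and H2-Eb1 in CD45.2 and of Tlr2 in CD45.1 had adjusted p of 0.000360, 0.0425 and 0.000803. These missed only the 2-fold limit. Mmp8 rose in both populations (2.62 and 2.95), from 12.97 ± 7.001 to 78.6 ± 15.3 in CD45.1 and from 3.51 ± 0.424 to 27.8 ± 9.35 in CD45.2. Rps19 (2.30 and 2.42, at a peak centred at −492 from the start site) and Gla, a lysosomal galactosidase (1.65 and 2.09), rose in both populations. Pla2g7 (1.41) was called higher and Rpl32 (−1.24) and Aurkb (−1.19) lower in CD45.1 and not in CD45.2, where they lay at 0.49, −0.86 and −0.66. In CD45.2 and not in CD45.1, Cebpa (1.07), Trem2 (1.07), Ifi204 (1.12), Ccr1 (1.86), Aoah (1.47) and Map2 (2.65) were called higher and Cebpe (−2.19) lower. In CD45.1 they lay at 0.90, 0.96, 0.22, 0.40, −0.065, −0.070 and −1.01 in that order. There Cebpa missed only the 2-fold limit (adjusted p = 4.05e-05). Of these 10 promoters Aoah passed the test of a difference between the responses, and for Pla2g7 no adjusted p was given.

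In 200 bp around the centre, an AP-1 match was found in 16.5% of the pairs higher after LPS in CD45.1 and 11.7% in CD45.2, against 1.32% and 0.971% of those lower and 3.06% of all pairs. A C/EBP match was found in 13.1% and 16.4% of the pairs higher, 5.28% and 4.85% of those lower and 5.19% of all. The ISRE core was found in 3.09% and 4.27% of the pairs higher, 6.60% and 5.83% of those lower and 3.98% of all. A PU.1 match was found in 4.47% and 4.63% of the pairs higher, 6.93% and 6.80% of those lower and 3.26% of all. CpG-poor pairs were 72 of 291 higher and 65 of 303 lower in CD45.1, and 85 of 281 and 40 of 103 in CD45.2. Over all 10053 pairs they were 917. Motif content follows base composition, and these counts were not repeated within the CpG classes.

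A different response of the populations was called at 8 of the 10053 promoter pairs (0.0796%, background 0.245%). For 908 of these pairs DESeq2 gave no adjusted p for this test, because of low counts, and among the other 9145 the share was 0.0875%. In this test a factor that is constant between the tables at a peak cancels. At all 8 the response of CD45.1 was below that of CD45.2. At Lilrb4a, CD45.2 had 12.5, 12.4 and 10.7 normalized tags in untreated and 79.5, 68.2 and 51.6 in LPS libraries, while CD45.1 had 53.5, 58.5 and 57.7 and then 58.0, 70.9 and 79.7. The difference of the responses was −2.12 (SE 0.38, log2, adjusted p = 7.71e-05). Normalized tags of host microglia in LPS mice lay near those of grafted cells without LPS. That comparison of levels crosses the tables, where the peak was 128 bp wide in untreated and 181 bp in LPS mice, so the levels cannot be equated. Sqrdl, a mitochondrial sulfide oxidase, had 19.04, 6.85 and 9.62 and then 90.8, 63.8 and 73.5 in CD45.2, and 51.3, 51.4 and 53.7 and then 79.7, 84.5 and 111 in CD45.1 (−1.93, SE 0.38, adjusted p = 0.000547). Klra2 had 0, 1.84 and 2.20 and then 29.01, 20.2 and 42.0 in CD45.2, and 44.8, 45.3 and 66.3 and then 81.5, 104 and 134 in CD45.1 (−3.17, SE 0.65, adjusted p = 0.000801). CD45.2 thus remained below CD45.1 at Klra2, where its untreated level rests on few tags. Aqp9, a glycerol channel, had 2.97 ± 1.80 and then 19.3 ± 4.77 in CD45.2 and 32.2 ± 12.2 and 27.6 ± 4.601 in CD45.1 (−2.77, SE 0.64, adjusted p = 0.00847). Hal rose in both populations, by more in CD45.2 (−2.42, SE 0.57, adjusted p = 0.00945).

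Atf3, a factor of the stress response, went from 100.8 ± 1.09 to 156 ± 14.9 in CD45.2 and from 138 ± 17.9 to 104 ± 12.6 in CD45.1 (−1.01, SE 0.25, adjusted p = 0.0164), with neither response past the 2-fold limit and an adjusted p of 0.0942 for that of CD45.1. Aoah, which detoxifies LPS by removing acyl chains, had 19.7 ± 0.560 and then 53.4 ± 7.20 in CD45.2 and 42.8 ± 2.90 and 41.2 ± 10.2 in CD45.1 (−1.54, SE 0.39, adjusted p = 0.0245). Ifi211, an interferon-inducible p200 gene with close paralogs, had 10.05 ± 4.16 and then 53.8 ± 16.6 in CD45.2 and 44.2 ± 7.68 and 83.9 ± 5.60 in CD45.1 (−1.61, SE 0.42, adjusted p = 0.0379). With the mouse as a block 5 of the 8 were called, and the adjusted p of Atf3, Aoah and Ifi211 were 0.268, 0.339 and 0.308. Without 1 library the count fell to 2 (CD45.2 of mouse 5), 3 (CD45.1 of mouse 6), 4 (CD45.2 of mouse 2) or 5 (mouse 3 for CD45.1, mouse 6 for CD45.2). Lilrb4a and Klra2 were called in all 19 alternative fits, Sqrdl in 17 of them and Aqp9 and Hal in 15. Of the 8 pairs 6 were CpG-poor. At an unadjusted p under 0.05, 376 promoter pairs passed, and the median SE of the difference of the responses was 0.34.

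**Figure D5:**
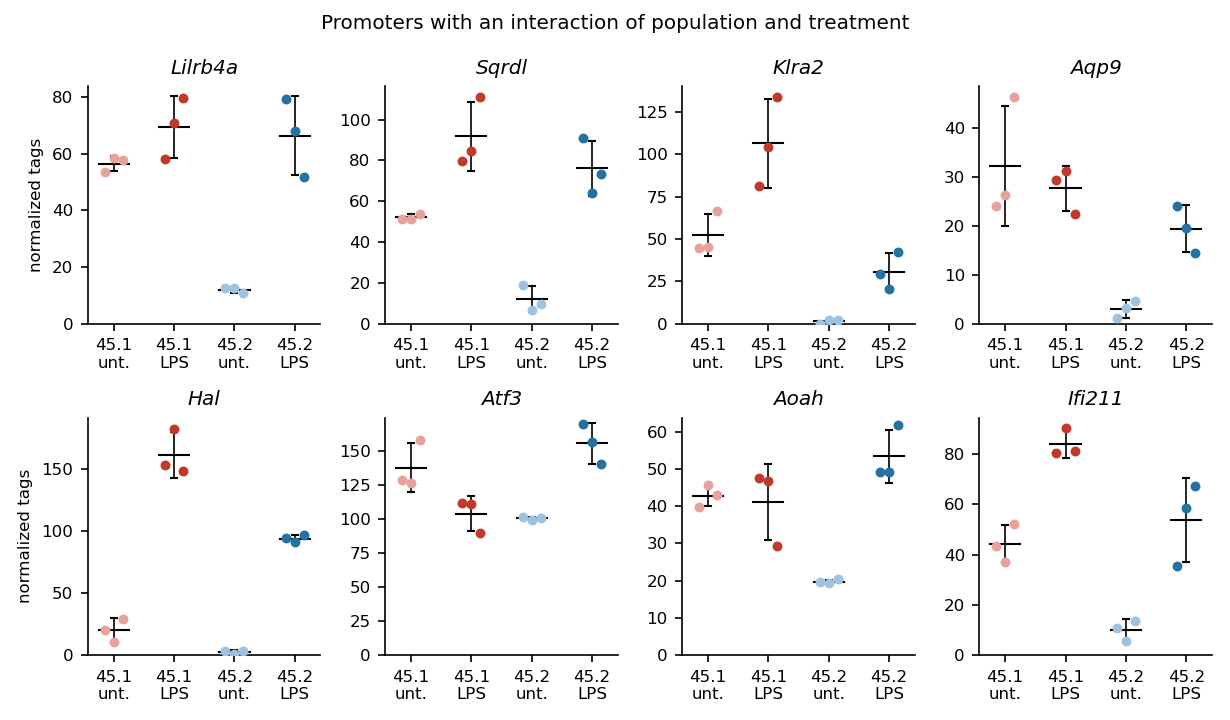
Normalized tags (linear axes from 0) per library at the 8 promoters with a different response, with bars at the mean and SD of 3 libraries of CD45.1 (red) and CD45.2 (blue), untreated (light) and LPS (dark). Untreated CD45.2 libraries are the lowest group at each promoter, from 2.45 at Hal to 100.8 at Atf3 on average, and the CD45.2 libraries of LPS mice lie above them.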

How the data were processed

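Open chromatin of sorted brain macrophages was profiled by ATAC-seq in 12 libraries. The submitters' processing notes name bcl2fastq 2.17.1.14, Bowtie2, Picard 1.108, HOMER and the build mm9. The authors called peaks per library (HOMER score, used here only for coordinates; per the file headers a fragment length of 300 bp, a false discovery rate of 0.001 and 4-fold over the local background), merged the 6 lists of each treatment, annotated them and counted tags. The deposited values are unnormalized tags in steps of 0.5, treated as estimated counts (expected counts). Any shift of read ends for the transposase is not given in the sources used here. The role of Picard is not given either, and duplicate reads, if kept, would make counts look too precise.

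All peaks of a table with a count over 10 in at least 1 library were fitted with DESeq2 1.42.0 (R 4.3.3) on rounded tags, with median-of-ratios size factors. Only promoter peaks are reported, with p-values adjusted over the whole table. Peaks were matched between the tables by a reciprocal overlap of at least 50% (39390 pairs, 10080 of them promoter pairs), and one model over the 12 libraries tested LPS within each population and the interaction. Normalized tags are divided by the size factor of their own fit, and log2 fold changes are unshrunken, CD45.1 over CD45.2 or LPS over untreated. SE stands for the standard error of these values, and p-values are Wald tests with Benjamini-Hochberg adjustment. No test for a share over peaks was made. Alternatives were edgeR 4.0.16, other scalings, filters and matching, GC correction, the mouse as a block, peak width and leaving out each library. The design text states that both populations came from the same animal, which pairs the libraries, although deviations of same-mouse libraries correlated by only −0.248 to 0.0723. Replicates are individual mice.

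Members and gene lists were chosen with earlier results of these data known. Named promoters are the 10 with the smallest adjusted p per table and direction, 5 per population and direction of the LPS response, the 6 pairs with the smallest adjusted p of the interaction (the other 2 called are named as well), up to 4 per gene list and 13 fixed anchors. Some promoters that these rules name are not reported here. CpG content, motifs and sequences come from the NCBIM37 genome (the same build) with GENCODE vM1, where 98.9% of promoter peaks with a shared symbol lay within 1500 bp of a start site. Scripts were tested on simulated data.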

Additional observations from a re-analysis of the deposited data

Results flagged for a closer look

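A test of the difference between the populations in their response to LPS flagged 8 promoters, with the response of CD45.1 minus that of CD45.2 given here on the log2 scale. The values were −2.12 at Lilrb4a, −1.93 at Sqrdl, −3.17 at Klra2, −2.77 at Aqp9, −2.42 at Hal, −1.01 at Atf3, −1.54 at Aoah and −1.61 at Ifi211. The response of CD45.2 was the larger at each. Lilrb4a and Klra2 were called under every alternative run, while Aoah was called in 7 and Ifi211 in 8 of 19.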

How the results depend on the processing

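A mean count of at least 20 left 48 and 50 promoter peaks called for CD45.1 and CD45.2 among the untreated libraries and 7 and 17 among the LPS libraries. Without this filter the called peaks had medians of 20.2 and 18.6 normalized tags in untreated mice and 13.6 and 15.2 in LPS mice. Many calls thus lay at peaks with few tags. With the mouse as a block (replicate block) 84 and 90 were called in untreated mice and 29 and 37 in LPS mice, with a GC correction in the same fit 24 and 34 in LPS mice, and 5 pairs with an interaction. Same-mouse pairing comes from the shared animal. Scaled by total tags, 128 pairs were lower in CD45.1, 164 higher in CD45.2 and 2 had an interaction, and the median over all peaks of the LPS table moved to 0.14 (log2). An offset for peak width left 63 pairs lower in CD45.2, and matching by an overlap of 1 base gave 433 higher and 162 lower there. The cause of these changes was not tested. Over total tags the difference in promoter share turned from −0.412 to 1.07 percentage points (exact p = 0.531), and without pairing it was −0.412 (exact p = 0.605).

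Leaving out 1 library gave 68 to 98 and 70 to 100 calls in untreated mice, 23 to 35 and 33 to 43 in LPS mice, 212 to 393 pairs higher and 160 to 397 lower in CD45.1, 221 to 328 and 60 to 106 in CD45.2, and 2 to 8 interactions. Without CD45.2 of mouse 4, 98 and 83 were called in untreated mice. Without 1 mouse the share differed by −0.887 to −0.157 points. Of 1571 values for 106 named results, 1354 kept their direction and their side of the threshold, 207 lost the call and 10 changed sign, all of them in untreated mice at promoters past no threshold. These were P2ry12 with the GC correction (−0.15, and −0.17 with the block) and Tnf with size factors from promoter peaks (−0.034) or a mean count of at least 20 (−0.020). Without 1 library Tnf ranged from −0.044 to 0.067, Cx3cr1 from −0.19 to 0.018, H2-Ab1 from −0.031 to 0.39 and Tmem119 from −0.25 to 0.069. Depth limits the LPS table, where a promoter peak held a median of 20 to 63 tags.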
